A study of Homo sapiens with 6 samples.

Results

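The 7 genes of the mitochondrial DNA (mtDNA) that encode subunits of respiratory complex I (MT-ND1, MT-ND2, MT-ND3, MT-ND4, MT-ND4L, MT-ND5 and MT-ND6) were taken by name from the deposited table of 4101 genes, which holds all 7. They were measured by RNA sequencing in SH-SY5Y, a human neuroblastoma line labelled wild type and used as a model of dopaminergic cells. Cultures in the METH-treatment group received 2 mM methamphetamine (METH), a psychostimulant, for 24 h, and cultures in the PBS-treatment group received phosphate-buffered saline, with 3 libraries in each group. The labels call the time Day 0 in both groups, and nothing in them says whether the 3 libraries of a group came from separate cultures, so the spread between libraries may be technical. The PBS columns carry the numbers 10, 11 and 12 and the METH columns 1, 2 and 3, and libraries are named after these numbers. Values are headed FPKM, fragments scaled to transcript length and to the library total. They were compared between genes and between libraries on that reading, which was checked only indirectly. Comparison between libraries also depends on the scaling. Scaling to rows not encoded by mtDNA shifted the median log2 difference of all rows by -0.33. The table holds only genes that the authors marked as different between METH and PBS in these same libraries. The direction of each gene and the separation of its groups were therefore partly fixed by how the table was made, and they are given as a description, without a p-value for a gene.

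Complex I, NADH:ubiquinone oxidoreductase, is the largest enzyme of the respiratory chain. It passes electrons from NADH to ubiquinone and pumps protons across the inner mitochondrial membrane. The hydrophobic core of its membrane arm is encoded in the mtDNA and the rest of the enzyme in the nucleus, so that both genomes are needed to build it. MT-ND2, MT-ND4 and MT-ND5 are the antiporter-like proton-pumping subunits. MT-ND1 forms part of the ubiquinone pocket, and MT-ND3, MT-ND4L and MT-ND6 join that pocket to the pumping subunits. The mtDNA is transcribed from both strands into long polycistronic RNAs, from which the messenger RNAs (mRNAs) are released mainly by cutting out the transfer RNAs between them. MT-ND4L and MT-ND4 stay together on a bicistronic mRNA. MT-ND6 is the 1 mRNA made from the light-strand transcript, while the other complex I mRNAs come from the heavy-strand transcript.

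By the GENCODE release 29 annotation of GRCh38, each of the 7 genes is a single protein-coding exon on chromosome M. Along the heavy-strand transcript the order is MT-ND1 (ENSG00000198888, 3307 to 4262), MT-ND2 (ENSG00000198763, 4470 to 5511), MT-ND3 (ENSG00000198840, 10059 to 10404), MT-ND4L (ENSG00000212907, 10470 to 10766), MT-ND4 (ENSG00000198886, 10760 to 12137) and MT-ND5 (ENSG00000198786, 12337 to 14148), all on the plus strand. MT-ND6 (ENSG00000198695, 14149 to 14673) follows on the minus strand. The build used by the authors is not given in the sources used here. The junction of MT-ND4L with MT-ND4 is shown because the annotated genes share 7 bases there (capitals), so that fragments across it belong to both. The opening 30 bases of MT-ND6 and MT-ND1, with the start codon in capitals, are shown because they come from opposite strands. All are written 5′ to 3′ from the GENCODE release 29 transcripts.
MT-ND4L, last 30 bases: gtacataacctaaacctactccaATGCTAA
MT-ND4, first 30 bases: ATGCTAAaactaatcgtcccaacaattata
MT-ND1, first 30 bases: ATAcccatggccaacctcctactcctcatt
MT-ND6, first 30 bases: ATGatgtatgctttgtttctgttgagtgtg
The strand is visible in the base composition. MT-ND6 RNA held 35.6% G and 7.0% C over its 525 bases, whereas the 6 heavy-strand genes held 9.5% to 12.1% G and at least 29.5% C. Whether the libraries kept strand is not given in the sources used here, so for MT-ND6 its own reads and reads of heavy-strand RNA across the same bases could not be told apart.

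All 7 genes were lower with METH, and their summed FPKM was 52.9% of that with PBS. The sum was 34019, 18325 and 28786 FPKM in PBS 10, PBS 11 and PBS 12, and 12956, 16603 and 13345 FPKM in METH 1, METH 2 and METH 3. Each METH library was below each PBS library, but PBS 11 lay much closer to the METH libraries than PBS 10 did. As a share of the summed FPKM of the table, complex I genes made up 11.5% ± 3.44 with PBS and 6.36% ± 0.889 with METH (SD, n = 3 each). In bulk RNA, fewer mitochondria-rich cells, fewer mtDNA copies and less RNA per copy could not be told apart.

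MT-ND1 and MT-ND2, the first complex I genes along the heavy-strand transcript, were lower by similar factors. MT-ND1 was at 3434, 1887 and 2765 FPKM in PBS 10, 11 and 12, and at 906, 1163 and 1028 FPKM in METH 1, 2 and 3. The groups were clearly apart, with means of 2695 ± 776 and 1032 ± 128 FPKM (SD, n = 3 each) and a log2 difference of -1.35 (standard error 0.324), the largest of the 7 on this scale. MT-ND2 was at 3654, 1286 and 2445 FPKM with PBS and at 766, 1110 and 981 FPKM with METH. Its groups were apart only by the gap between PBS 11 and METH 2, and the log2 difference was -1.26 (standard error 0.404).

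The 3 genes in the middle of the transcript held the highest levels and the smallest decreases. MT-ND3 was at 6730, 6917 and 10876 FPKM with PBS and at 5527, 6184 and 4520 FPKM with METH. It was the most abundant of the 7 in both groups by mean, with a log2 difference of -0.57 (standard error 0.409), and METH retained 66.2% of the PBS mean. MT-ND4L was at 7836, 3023 and 5065 FPKM with PBS and at 2303, 3304 and 2721 FPKM with METH. METH 2 exceeded PBS 11, so that this was the 1 gene of the 7 with overlapping groups, and the log2 difference was -0.84 (standard error 0.427). MT-ND4 was at 5015, 2593 and 3349 FPKM with PBS and at 1796, 2537 and 1892 FPKM with METH. Its groups were nearly touching, at PBS 11 and METH 2, with a log2 difference of -0.78 (standard error 0.366). MT-ND3 (346 bases) and MT-ND4L (297 bases) are the shortest of the 7 genes. Values per length depend on the fragment length assumed for such short transcripts, so their rank by level is less certain than their differences between groups.

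MT-ND5, the last complex I gene of the heavy-strand transcript, was at 5244, 1785 and 2921 FPKM with PBS and at 1210, 1745 and 1586 FPKM with METH. PBS 10 stood far above the other PBS libraries, PBS 11 lay just above METH 2, and the log2 difference was -1.01 (standard error 0.424). MT-ND6, across the strand boundary, had the lowest FPKM of the 7 in both groups, though its capture by the library kit was not tested. MT-ND6 was at 2106, 834 and 1365 FPKM with PBS and at 448, 560 and 617 FPKM with METH. The groups were apart, with means of 1435 ± 639 and 542 ± 86.0 FPKM (SD, n = 3 each) and a log2 difference of -1.32 (standard error 0.358).

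**Figure D1:**
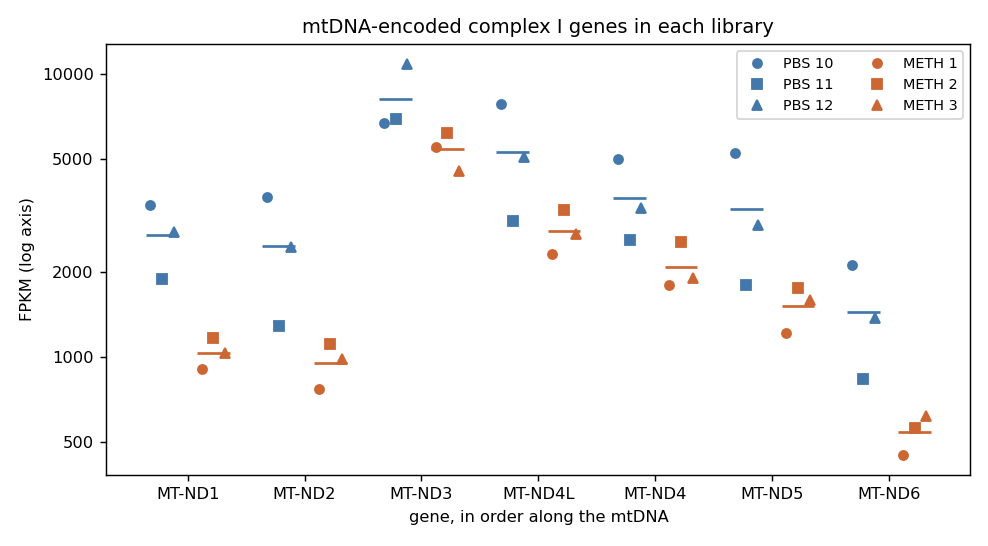
FPKM (log axis) of the 7 mtDNA-encoded complex I genes in each library, with PBS in blue, METH in orange and a line at each group mean (n = 3 per group). PBS 10 is the highest PBS library in 6 of the 7 genes and PBS 11 the lowest in 6 of 7, and the groups overlap in MT-ND4L alone.

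In the limma comparison, 5 of the 7 genes (MT-ND1, MT-ND2, MT-ND4, MT-ND5 and MT-ND6) were lower at an adjusted p-value under 0.1, where 35.8% of all rows of the table were, and 69.1% passed in either direction. The other 2, MT-ND3 and MT-ND4L, were not past the threshold. In 6 of the 7 the METH libraries were all below the PBS libraries, as in 33.0% of all rows, and in 64.0% the groups did not overlap in either direction. Nothing is read from these counts, since the table was selected on this contrast. The adjustment within a selected table is also lenient, and 4 of the 7 had an unadjusted p-value under 0.05. The median log2 difference of the 7 was -1.01, beside 0.11 over all rows. The count of 5 rested on single libraries, falling to 2 without METH 1 or without PBS 12 and to 3 without METH 2, without METH 3 or without PBS 10, while it was 6 without PBS 11. MT-ND1 and MT-ND6 were past the threshold in all 6 of these fits. MT-ND5, MT-ND4 and MT-ND4L passed it in 1 of the 6, the fit without PBS 11, and MT-ND3 in none.

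The spread between PBS libraries was wide and shared by the genes. The coefficient of variation with PBS ran from 28.6% to 53.2% over the 7 genes (median 44.5%), while the median over the table was 27.1%. With METH it ran from 12.4% to 19.4% (median 18.1%), close to the 18.7% of the table. PBS 10 was the highest PBS library in 6 of the 7 genes and PBS 11 the lowest in 6, MT-ND3 being the exception in both. Among the METH libraries, METH 2 was highest in 6 of the 7 and METH 1 lowest in 6. The exceptions were MT-ND6, highest in METH 3, and MT-ND3, lowest in METH 3. Without PBS 10 the log2 difference of MT-ND5 was -0.61 and that of MT-ND4L was -0.51, against -1.39 and -1.20 without PBS 11.

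Along the mtDNA the decreases did not follow a single gradient. From MT-ND1 to MT-ND5, the log2 differences were -1.35, -1.26, -0.57, -0.84, -0.78 and -1.01, so that the genes at both ends of this stretch were lower by more than those in the middle. MT-CO3, which ends shortly before MT-ND3 begins and encodes a subunit of cytochrome c oxidase, had a log2 difference of -1.97. The step from MT-CO3 to MT-ND3 was thus the sharpest between neighbouring mRNAs. Light-strand MT-ND6 (-1.32) lay within the range of the 6 heavy-strand genes, -1.35 to -0.57 (median -0.93), but near its lower end. By group means it lay just outside, as METH retained 37.8% of the PBS mean for MT-ND6 and 38.3% to 66.2% for the heavy-strand genes. The other light-strand gene of the table, the transfer RNA gene MT-TS1 (69 bases), had a log2 difference of -1.15 (standard error 0.297). It was at 201, 90.3 and 145 FPKM in PBS 10, 11 and 12, and at 56.1, 75.3 and 57.4 FPKM in METH 1, 2 and 3. With 1 light-strand mRNA, the 2 strands could not be compared by size.

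**Figure D2:**
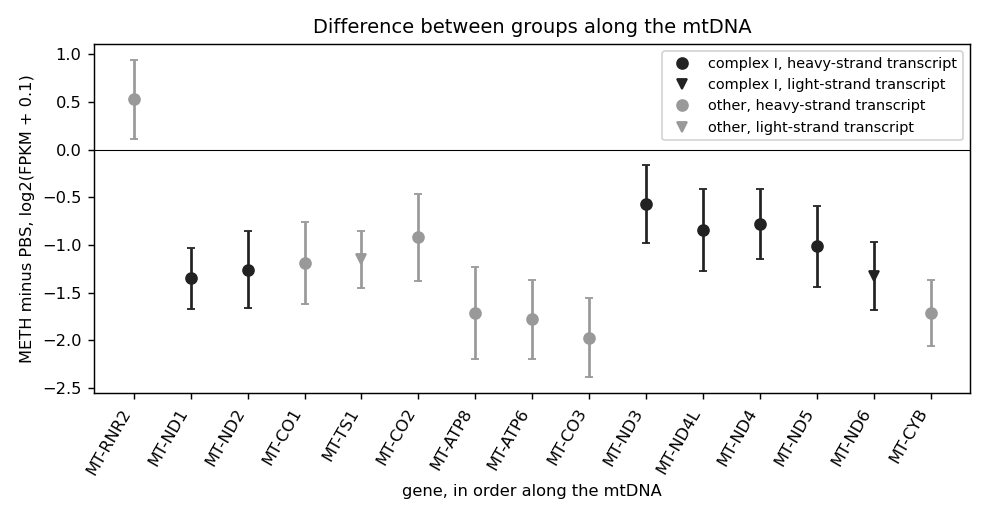
Log2 difference between METH and PBS (points, limma on log2(FPKM + 0.1)) with its standard error (bars) for the 15 mtDNA-encoded genes of the table, in their order along the mtDNA. Complex I genes are black and others grey, with triangles for light-strand transcripts. The complex I genes lie between -1.35 and -0.57, and MT-RNR2 alone lies above 0, at 0.53.

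To compare genes without the influence of the library total, ratios were formed within each library. In all, 4 ratios were tested by an exact permutation test, 2-sided, for which 3 libraries against 3 allow no p-value below 0.1. The first asked whether MT-ND6 moved apart from the heavy-strand complex I genes. Its log2 ratio to the mean of the other 6 was -1.27, -1.57 and -1.52 in PBS 10, 11 and 12, and -1.87, -1.98 and -1.57 in METH 1, 2 and 3. The ratio was lower by 0.35 on average (log2 difference -0.35, SD 0.161 with PBS and 0.215 with METH), but METH 3 equalled PBS 11 to 2 decimals (exact permutation p = 0.2, 0.267 adjusted over the 4 ratios). With 3 libraries per group the test cannot decide whether MT-ND6 moved apart. MT-ND3 weighed on this ratio, and without it, an alternative chosen after seeing the data, the log2 difference was -0.27 and the exact permutation p = 0.1.

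The second ratio set the last heavy-strand complex I gene against the first. MT-ND5 relative to MT-ND1 was 0.61, -0.08 and 0.08 with PBS and 0.42, 0.59 and 0.63 with METH on the log2 scale. PBS 10 resembled the METH libraries in this ratio, and the mean log2 difference of 0.34 was within the spread (exact permutation p = 0.3, adjusted 0.3).

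The third ratio compared complex I genes with the other 6 mRNAs of the mtDNA, which encode cytochrome c oxidase subunits (MT-CO1, MT-CO2, MT-CO3), ATP synthase subunits (MT-ATP6, MT-ATP8) and cytochrome b (MT-CYB). It was -1.15, -1.16 and -1.34 with PBS and -0.66, -0.75 and -0.65 with METH. The groups were apart and each was tight, with a mean log2 difference of 0.53 (exact permutation p = 0.1, the smallest possible, and 0.2 adjusted). Complex I genes therefore made up 32.4%, 34.4% and 31.8% of the summed FPKM of the 13 mRNAs in the PBS libraries and 42.3%, 40.0% and 40.9% in the METH libraries. The 6 other mRNAs were lower with METH as well, at 24.1% to 52.3% of their PBS means, beside 37.8% to 66.2% for the complex I genes. The ranges of the individual genes overlapped. MT-ATP8 (-1.71), MT-ATP6 (-1.78), MT-CO3 (-1.97) and MT-CYB (-1.71) had larger log2 decreases than any complex I gene, whereas MT-CO2 (-0.92) and MT-CO1 (-1.19) had smaller ones than MT-ND1, MT-ND2 and MT-ND6. When MT-ND3 was left out the log2 difference was 0.46.

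The fourth ratio used MT-RNR2, the large ribosomal RNA, which lies directly upstream of MT-ND1 on the heavy-strand transcript with a transfer RNA between them. Complex I genes relative to MT-RNR2 stood at -0.78, -1.96 and -1.07 with PBS and at -3.0, -2.83 and -2.63 with METH. The mean log2 difference was -1.55, with groups apart (exact permutation p = 0.1, adjusted 0.2). MT-RNR2 was a higher row and the complex I genes were lower rows of a table selected on this contrast. The sign and separation of this ratio were therefore partly fixed in advance. How the library kit captured ribosomal RNA beside mRNA was not tested. MT-RNR2 itself was at 7698, 8247 and 7093 FPKM with PBS and at 10899, 12904 and 9707 FPKM with METH. It was higher in every METH library, with a log2 difference of 0.53 (standard error 0.413) that did not pass the limma threshold. Of the 2 ribosomal RNA genes of the mtDNA, the table holds this one.

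**Figure D3:**
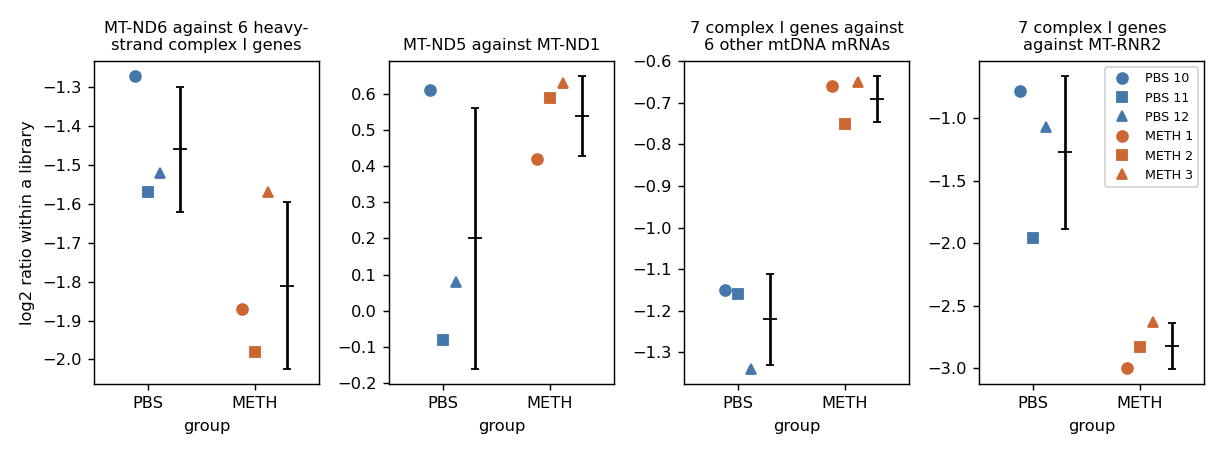
Log2 ratios within each library for the 4 tested ratios, with PBS in blue, METH in orange, and the mean and SD of each group in black (n = 3, separate vertical axes). The groups are apart for the complex I genes against the 6 other mRNAs and against MT-RNR2, and overlap for MT-ND6 against the heavy-strand genes and for MT-ND5 against MT-ND1.

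Within the complex I genes, the ratios of most pairs overlapped between the groups. Relative to the mean of the 7 in the same library, only MT-ND1 kept the groups apart. The ratios of all 21 pairs were formed within each library after the values had been seen, and they are given as a description. In 7 of the 21 pairs the METH and PBS libraries did not overlap, a share of pairs smaller than the 56.4% found over all 78 pairs of mtDNA-encoded mRNAs. MT-ND1 was lower relative to MT-ND3, MT-ND4L and MT-ND4, while its ratios to MT-ND2, MT-ND5 and MT-ND6 overlapped between the groups. The log2 ratio of MT-ND4 to MT-ND1 was 0.55, 0.46 and 0.28 with PBS and 0.99, 1.13 and 0.88 with METH, and those of MT-ND4L and MT-ND3 to MT-ND1 were higher with METH by 0.50 and 0.78 on average. The log2 ratio of MT-ND6 to MT-ND4L was nearly constant with PBS, at -1.90, -1.86 and -1.89, and was -2.36, -2.56 and -2.14 with METH. MT-ND4L and MT-ND4, which share an mRNA, kept overlapping ratios, at 1.41 ± 0.216 with PBS and 1.34 ± 0.0849 with METH (linear FPKM ratio, SD, n = 3 each).

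**Figure D4:**
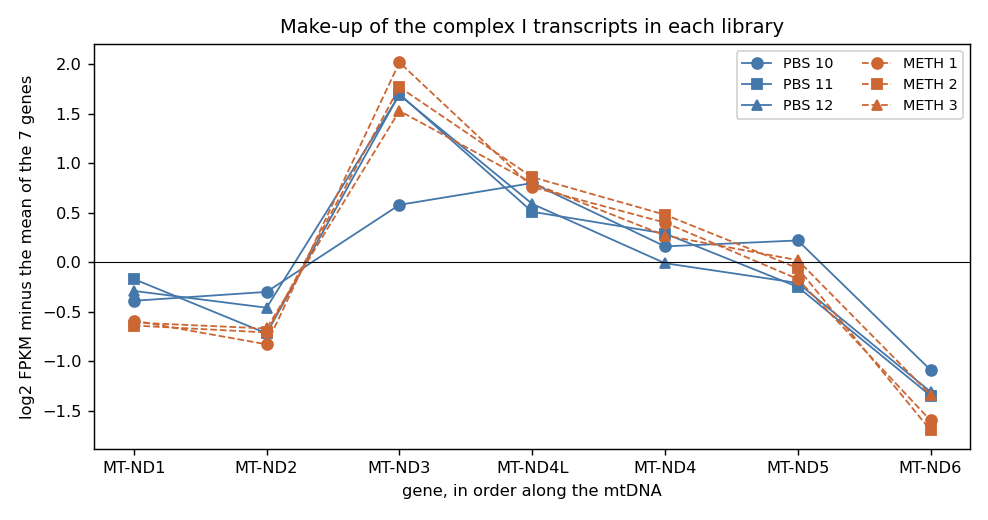
Log2 FPKM of each complex I gene minus the mean of the 7 in the same library (PBS solid blue, METH dashed orange), in order along the mtDNA. MT-ND1 lies between -0.39 and -0.17 with PBS and between -0.64 and -0.59 with METH, and PBS 10 stands apart at MT-ND3, with 0.58 where the other libraries have 1.53 to 2.02.

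Of the nuclear genes of complex I, from lists written from general knowledge, 7 of the 8 in the table had positive log2 differences, unlike the mtDNA-encoded genes. Over all rows of the table, 49.6% had a negative log2 difference. None of the 7 nuclear core subunits was in the table, and 5 of the 30 accessory subunits and 3 of the 19 assembly factors were. Of these 8, 4 were higher and 1 was lower past the limma threshold, where 33.3% and 35.8% of all rows were, and 3 did not pass. In 5 of the 8 all METH libraries were above the PBS libraries, as in 31.0% of all rows. Their median log2 difference was 0.47. NDUFB4, an accessory subunit of the membrane arm, rose from 208, 293 and 315 FPKM to 722, 640 and 482 FPKM, a log2 difference of 1.18 (standard error 0.266). All METH libraries were well above the PBS libraries. NDUFB6, another membrane-arm subunit, rose by a log2 difference of 0.62, NDUFS4, a subunit of the matrix arm, by 0.49, and TMEM126B, which takes part in assembly of the membrane arm, by 0.59. FOXRED1, an assembly factor, was lower (-0.64) with overlapping groups. The log2 differences were 0.46 for NDUFA5, 0.34 for TIMMDC1 and 0.30 for NDUFB5, which did not pass. The count of 5 was 1 without METH 1, without METH 2 or without PBS 12. When libraries were scaled to the same sum over rows not encoded by mtDNA, NDUFB4 (0.85) and FOXRED1 (-0.97) passed. NDUFB6, NDUFS4 and TMEM126B did not pass with this scaling, with log2 differences of 0.29, 0.15 and 0.26. TIMMDC1 was then at 0.0 and NDUFB5 at -0.03.

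**Figure D5:**
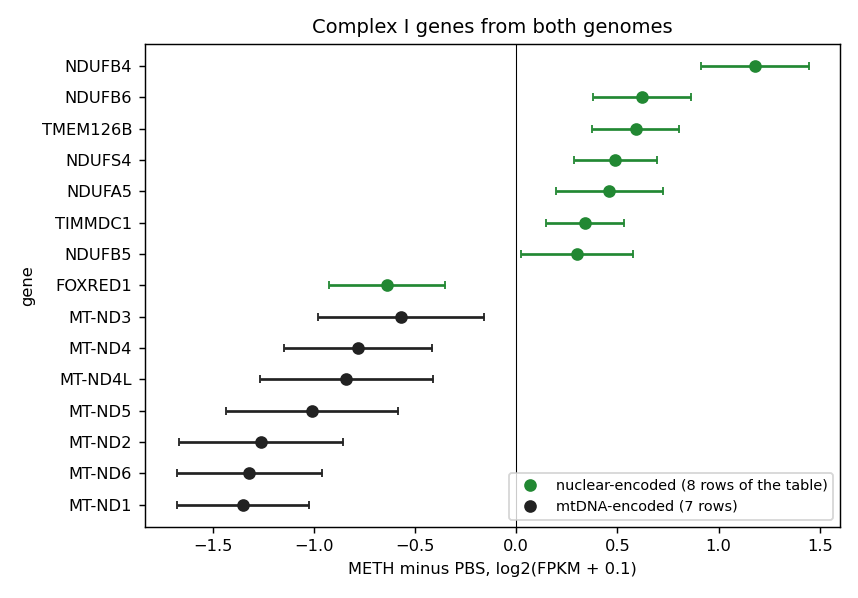
Log2 difference between METH and PBS with its standard error for the 8 nuclear-encoded complex I genes of the table (green, subunits and assembly factors) and the 7 mtDNA-encoded genes (black). FOXRED1 (-0.64) is the 1 nuclear gene below 0, and the other 7 range from 0.30 to 1.18. When libraries are scaled to rows not encoded by mtDNA, TIMMDC1 is at 0.0 and NDUFB5 at -0.03.

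Of 38 genes that transcribe or maintain mtDNA or process its RNA, 4 were in the table and 1 passed the threshold, where 69.1% of all rows passed in either direction. REXO2, which degrades short RNA fragments in mitochondria, rose from between 16.2 and 19.6 FPKM in the PBS libraries to between 23.8 and 29.6 FPKM in the METH libraries, a log2 difference of 0.56 (standard error 0.199). This call was lost without METH 1, without METH 2, without PBS 12 and with scaling to rows not encoded by mtDNA (0.22). LRPPRC, which stabilizes mitochondrial mRNAs, had a log2 difference of -0.43, and PNPT1, a mitochondrial exoribonuclease, one of -0.10. MTERF2, of the mitochondrial transcription termination factor family, had -0.83. These 3 did not pass, and PNPT1 varied from 4.02 to 13.8 FPKM among METH libraries alone.

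Among 3589 rows with a mean of at least 1 FPKM and names not starting with MT, the 5 closest to the mean profile of the complex I genes over the 6 libraries were AC099850.3, PLXNA4, AC074135.1, PRKDC and CCNA2. Likeness was measured as the root mean square difference of centred log2(FPKM + 0.1), which was 0.0937 to 0.140 for these 5. It was 0.128 to 0.456 for the 7 genes themselves and 0.804 for the median row. PLXNA4, a plexin receptor for semaphorins, for example, had 32.5, 17.4 and 25.8 FPKM in PBS 10, 11 and 12 and 10.5, 11.8 and 12.3 FPKM in METH 1, 2 and 3, so it shared both the lower METH level and the order of the PBS libraries. These rows were found by their likeness in the same libraries, and no test was made.

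A nuclear copy of MT-ND2, MTND2P28 (ENSG00000225630, chromosome 1, 629640 to 630683), is also in the table and is identical to MT-ND2 at 98.4% of 1042 aligned bases, so reads could be split between them. It had 0.735 to 2.84 FPKM, or 0.078% to 0.132% of the MT-ND2 value in the same library. Among markers of the neuroblast cells of SH-SY5Y, GATA2, a transcription factor, was at 401 to 507 FPKM with PBS and 264 to 280 FPKM with METH, and CHGB, a secretory granule protein, was at 220.0 to 266 FPKM with PBS and 409 to 505 FPKM with METH, so both were expressed in each library. Of 8 mesenchymal markers, 2 were in the table and both, VIM and SNAI2, were higher past the threshold, as were 33.3% of all rows, though SNAI2 did not pass with scaling to rows not encoded by mtDNA (log2 difference 0.65). They had a summed level of 266 to 475 FPKM with PBS and 538 to 804 FPKM with METH. This sum was nearly all VIM, as SNAI2 was at 1.5 to 2.4 FPKM with PBS and 3.3 to 4.5 FPKM with METH. The part of these shifts in the values of the complex I genes was not tested.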

How the data were processed

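The authors sequenced RNA of 6 libraries on the Illumina HiSeq platform (SMARTER mRNA-Seq kit) and compared METH with PBS by DESeq2. The deposited table gives FPKM per library, group means, and the authors' fold changes and p-values, which were not used. Aligner, quantification tool and genome build are not given in the sources used here. Within each column 100% of the values were whole multiples (tolerance 0.0006) of a single step of 0.00903 to 0.0117 FPKM, the same for every gene, as in FPKM rounded to 2 decimals and then scaled per library. A read-count scale without length correction would also give a common step. The values were used as FPKM because MT-ATP8 exceeded MT-ATP6, and MT-ND4L exceeded MT-ND4, although each pair shares an mRNA and the first is much shorter, and because the median FPKM did not rise with length (7.80, 9.63, 9.65 and 8.02 over 4 length bins). Read depth is therefore unknown, and planned edgeR and DESeq2 fits were not run. Filters written in CPM were applied to FPKM.

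Moderated linear models (limma 3.58.1 under R 4.3.3, with an intensity trend in eBayes) compared METH with PBS on log2(FPKM + 0.1), which slightly understates changes of low genes, with Benjamini-Hochberg adjustment over 4101 genes and a threshold of 0.1. The fit was tested on simulated data in which few rows changed, each by more than the 7 genes differed here. That setting is unlike a table selected on the contrast, so it does not show how well the fit serves these genes. Ratios of mean log2 FPKM used exact permutation tests. No 2 libraries had the same values, and none was left out. The genes and lists were chosen with earlier results of these data known. Named are the 7 genes, other MT- and MTND-named rows, from each list at most 4 genes per direction past the threshold, without overlap and with at least 1 FPKM, and the 5 most alike. FOXRED1, NDUFA5, NDUFB5, TIMMDC1, LRPPRC, PNPT1 and MTERF2 fall outside the rule and were named after their values were seen. GENCODE release 29 holds 4093 of the 4101 identifiers. Permutations ran in scipy 1.17.1, tables in pandas 2.3.3 with numpy 2.4.6, alignment in Biopython 1.88 and plots in matplotlib 3.10.9, under Python 3.11.15. One marker of the cell line, with the counts and sums that include it, is not reported here.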

Additional observations from a re-analysis of the deposited data

How the results depend on the processing

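The count of 5 complex I genes past the threshold ranged from 2 to 6 when 1 library was left out and was 3 at a threshold of 0.05. It was 5 to 7 under the other alternatives. For nuclear complex I genes, the count of 5 ranged from 1 to 5 without a library and was 3 without a trend and 1 at a threshold of 0.05. For genes of mtDNA expression, the count of 1 ranged from 0 to 2 and was 0 at a threshold of 0.05. Scaling the libraries to the same sum over rows not encoded by mtDNA was chosen after seeing the data, in place of planned denominators that need read totals. It shifted the median of all rows by -0.33 and the share of lower among called rows from 51.8% to 77.1%. The counts were then 7, 2 and 0, and MT-ND3 had a log2 difference of -0.91. No log2 difference of an mtDNA-encoded complex I gene and no tested ratio changed sign in any alternative. Without a library, the tested ratios ranged from -0.47 to -0.26 (MT-ND6), 0.20 to 0.54 (MT-ND5), 0.47 to 0.56 (other mRNAs) and -1.90 to -1.31 (MT-RNR2). The log2 difference of the summed FPKM ranged from -1.14 to -0.69. No paired analysis was possible because the PBS columns carry numbers that match no PBS label. Precision is limited by 3 libraries per group and by an unknown read depth.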
